A study of Sus scrofa with 57 samples.

Results

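The genes described here are those of the cytosolic ribosomal proteins, taken as every gene whose name in the deposited expression tables is that of a large subunit (RPL) or small subunit (RPS) ribosomal protein, RPSA, or a P-stalk protein. The rule uses names alone and found 80 entries with 65 different names among 25285 gene identifiers, of which 48 belong to the large and 32 to the small subunit. RNA had been sequenced from mature adipocytes of retroperitoneal fat of 5 lean and 5 obese male pigs, in 11 libraries, since obese pig-572 was sequenced in a pair of libraries, described under different numbers, whose mean is used here. All animals, lean and obese alike, were F2 offspring of Göttingen minipigs and production pigs, housed alike with free access to food, and were picked from the population as its lean and obese extremes. The labels separate the groups by phenotype alone. The adipocytes were freed with collagenase and collected by flotation, and DNA of the same kind of cells was profiled by capture of methylated DNA (mDNAcap) and by reduced representation bisulfite sequencing (RRBS). The labels call 13 pigs obese and 10 lean for both methylation assays, whereas the capture comparison holds 11 of each and lists pig-411, labelled obese, with the lean animals.

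A ribosome consists of a large and a small subunit, each made of ribosomal RNA and a set of proteins that are needed in equal numbers, so their genes are expressed together and at high levels in most cells. The small subunit reads the mRNA, the large subunit joins amino acids, and the P-stalk proteins recruit the elongation factors. The mRNAs of ribosomal proteins begin with a pyrimidine tract through which the nutrient-sensing kinase mTORC1 and the RNA-binding protein LARP1 control their translation and stability. In adipocytes this pathway is known to respond to insulin and amino acids.

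Levels are given as FPKM (fragment counts scaled to transcript length and to the size of the library) divided by a size factor per library. Genes with a mean of at least 1 were tested, and these were 10170 genes, 67 of them ribosomal protein entries with 59 of the names. The 13 other entries averaged at most 0.867 FPKM and had loci of 279 to 1005 bases, and 4 of them were listed at 0 in every library. Through these 13 entries, 6 names had no tested entry at all, namely RPLP1, RPS2, RPL7, RPL28, RPS7 and RPS4X. This concerns names and not the proteins. The entry named RPS4X lies on chromosome 15, while an entry named RPS4 on chromosome X was tested and averaged 487 FPKM. The FPKM tables give no read total per library, so the depth behind a single value could not be worked out, but the bounds that the authors' program gave around each value spanned a median of 1.84% to either side for the 63 entries above 50 FPKM.

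These 63 entries covered a wide span of levels, from 72.0 to 1990.3 FPKM, with a median of 461. The median was 467 for the 39 large subunit entries and 421 for the 24 small subunit entries. RPS20 on chromosome 4 (Sscrofa10.2, 82679936 to 82681181), RPS12, RPS24, RPL37A and RPS28 were the 5 highest and together held 23.4% of the summed FPKM of all 80 entries. RPS20 lies on the head of the small subunit, and RPS12, RPS24 and RPS28 are small subunit proteins as well. Levels compared between genes in this way are per length, and for short loci they depend on how the effective length was set. The RPL37A entry, for example, spanned only 267 bases.

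**Figure D1:**
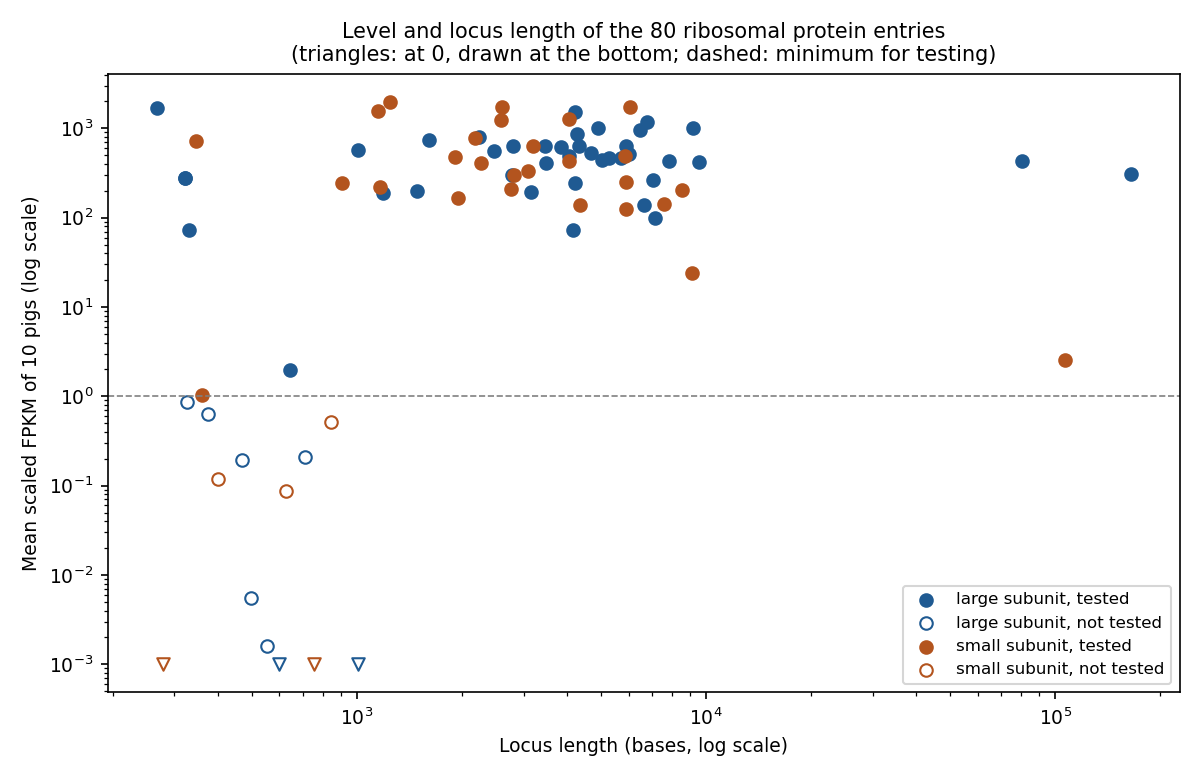
Mean scaled FPKM of the 10 pigs (vertical, log scale) against the length of the locus in bases (horizontal, log scale) for each of the 80 ribosomal protein entries, with large subunit entries in blue and small subunit entries in orange. Filled points were tested, open points averaged under 1 FPKM (dashed line), and triangles mark entries at 0. The open points all sit at loci of 1005 bases or fewer, while only 4 of the 67 tested entries lie at or below 50 FPKM.

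The comparison of lean with obese pigs asks whether adipocytes of obese animals carry other levels of these mRNAs. All 67 tested ribosomal protein entries had a log2 fold change below 0, that is a lower level in the obese pigs, beside 49.3% of all genes tested, and 66 did so when libraries were scaled by the summed FPKM of other genes. Of the 67, RPS20 on chromosome 18 met the minimum mean of 1 only through the lean group (mean 1.29 FPKM in lean and 0.758 in obese pigs). Some weak entries left out by this minimum were higher in obese pigs, so the count depends in part on it. The median log2 fold change of the 67 entries was -0.51 (quartiles -0.58 and -0.38), which puts the obese level at 70.01% of the lean level. The median over all genes tested was 0.01 (quartiles -0.17 and 0.18). A log2 fold change of -0.5 or lower was found for 34 entries, against 7.1% of all genes. No entry passed an adjusted p of 0.05 in limma with Benjamini-Hochberg adjustment over all genes. At that threshold 0% of all genes tested were lower and 0.00983% were higher in obese pigs. The adjusted p-values of the 67 entries ran from 0.082 to 0.93, with a median of 0.225. At an unadjusted limma p under 0.05 stood 41 entries, RPS20 on chromosome 18 among them, all lower in obese pigs, beside 9.51% of all genes in that direction and 11% in the other. That number was 26 without size factors, and it was 11 without lean pig-413, lean pig-577 or obese pig-433, 14 without obese pig-572, 16 without obese pig-524 and 22 without lean pig-525. The number of all genes at an unadjusted p under 0.05, in either direction, also moved, from 2090 to 1396 without size factors, 1416 without pig-413, 1497 without pig-577, 1974 without pig-433, 1427 without pig-572, 1515 without pig-524 and 1982 without pig-525. Because the entries vary together over the same 10 animals, these counts do not add up as separate pieces of evidence. They also include copies of the same name whose ratio was nearly fixed in every pig, such as the RPL36A pair on chromosome 16. Such copies may enter the same reads into a count more than once.

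**Figure D2:**
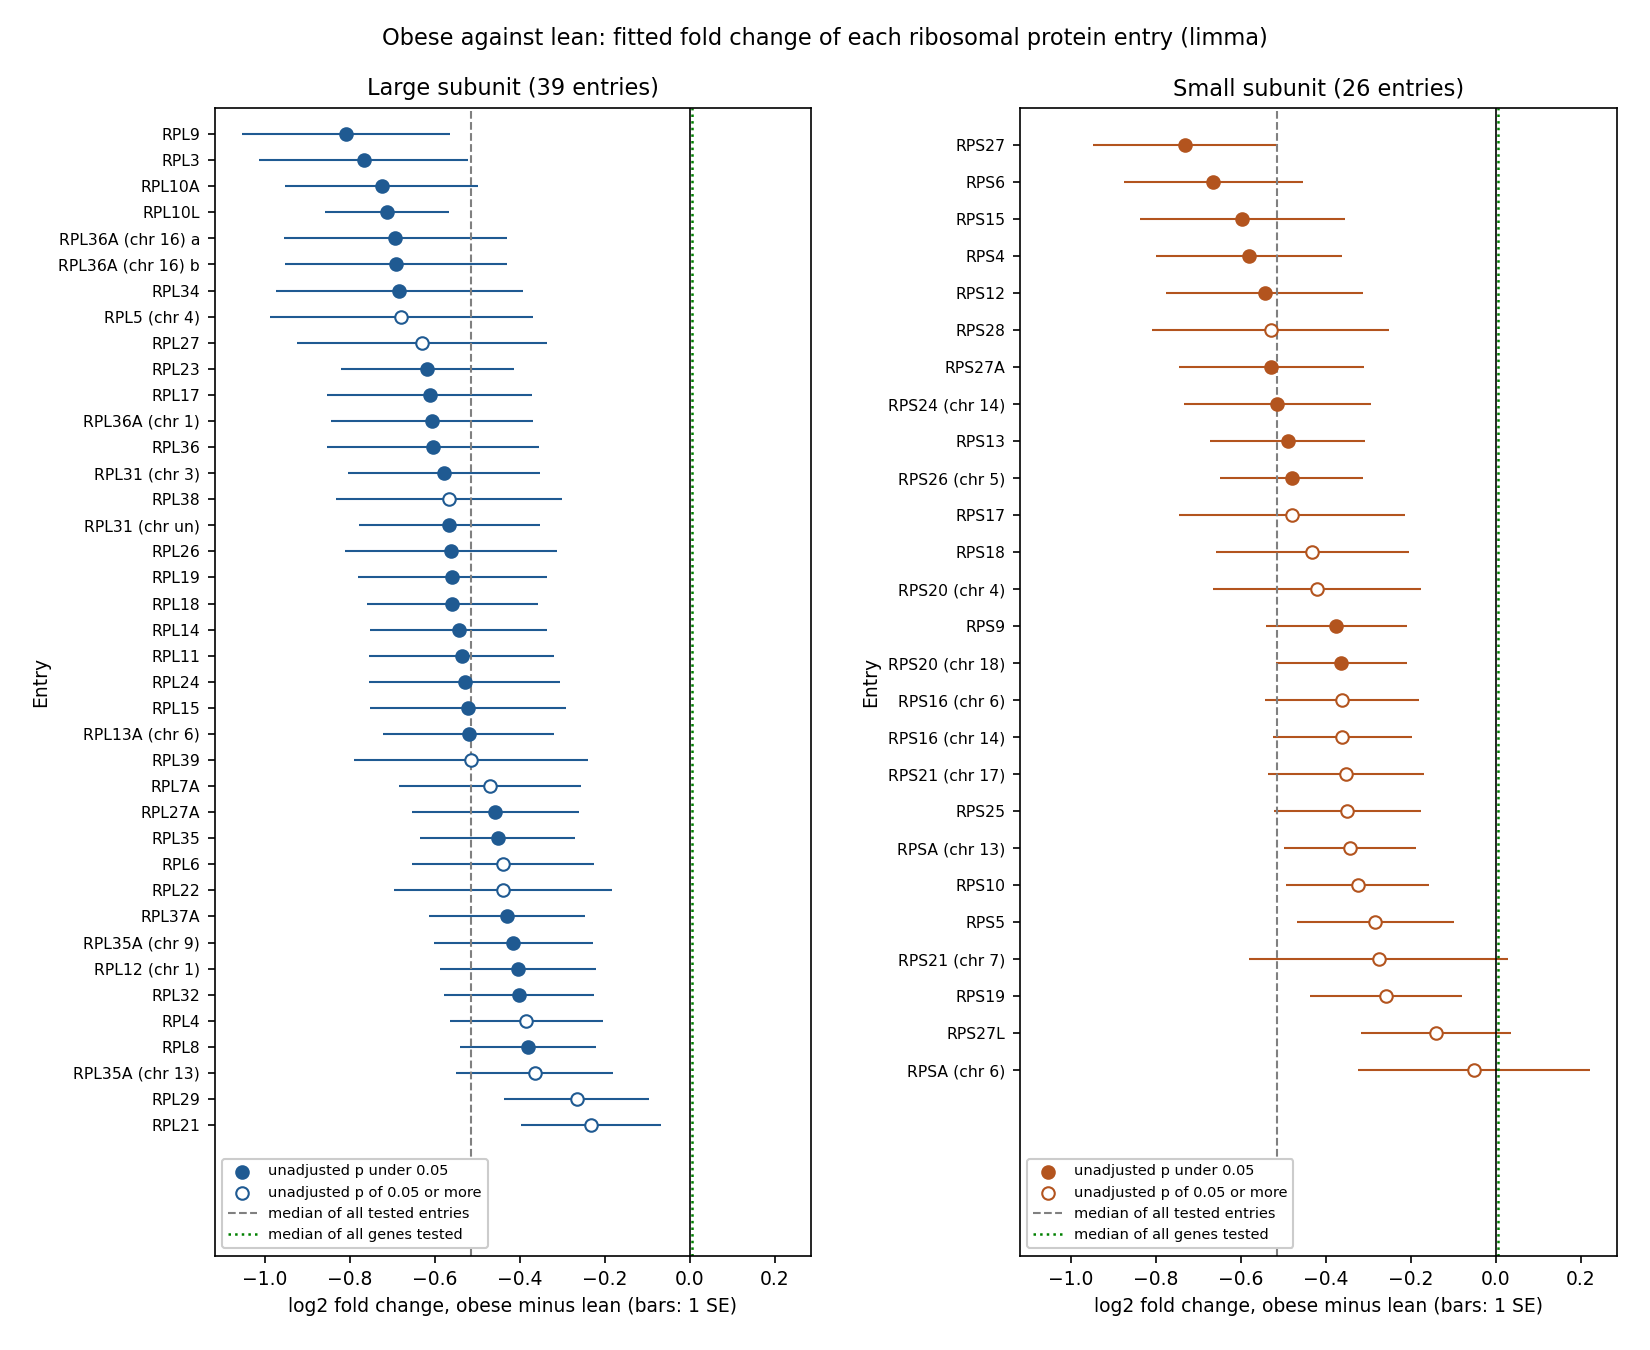
Fitted log2 fold change, obese minus lean (horizontal), of 65 tested ribosomal protein entries (vertical), with bars of 1 standard error. Filled points have an unadjusted limma p under 0.05, the dashed line is the median of all 67 tested entries (-0.51) and the dotted line the median of all genes tested (0.01). With this scaling every point lies left of 0, while 66 of the 67 tested entries do so with libraries scaled by summed FPKM, and the points run from -0.81 for RPL9 to -0.05 for RPSA on chromosome 6.

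Summed over all 80 entries, ribosomal protein mRNA came to 43613 ± 10106 FPKM (SD, n = 5) in the lean group. The obese group had 30651 ± 6548 FPKM (SD, n = 5). In each library the entries made up a certain percent of the FPKM summed over the entries themselves and all other genes with loci of at least 1000 bases, a share that needs no size factor. This share was 13.5, 15.0, 20.1, 16.8 and 18.9 in lean pig-402, pig-407, pig-413, pig-525 and pig-577. It was 11.4, 14.4, 12.3 and 15.1 in obese pig-433, pig-473, pig-524 and pig-529, and 12.1 and 11.8 in the pair of libraries of pig-572. The groups overlapped through pig-402 and pig-407 on the lean side and pig-473 and pig-529 on the obese side.

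The animals ranked in nearly the same way for almost every entry. As a median over the 67 entries, deviation from the mean of the 10 pigs was 0.59 (log2) in lean pig-413, 0.58 in pig-577 and 0.29 in pig-525, but -0.13 in pig-402 and -0.06 in pig-407. The obese pig-433, pig-524 and pig-572 stood at -0.54, -0.39 and -0.40, while pig-473 and pig-529 stood at 0.01 and 0.07. Thus 3 lean animals were high, 3 obese animals were low, and the remaining pairs lay close together in the middle. The lean pig-413, pig-525 and pig-577 exceeded every obese pig in 53 of the 67 entries, and pig-413 and pig-577 did so in 63. In 52 entries both pig-402 and pig-407 lay inside the range of the obese pigs.

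**Figure D3:**
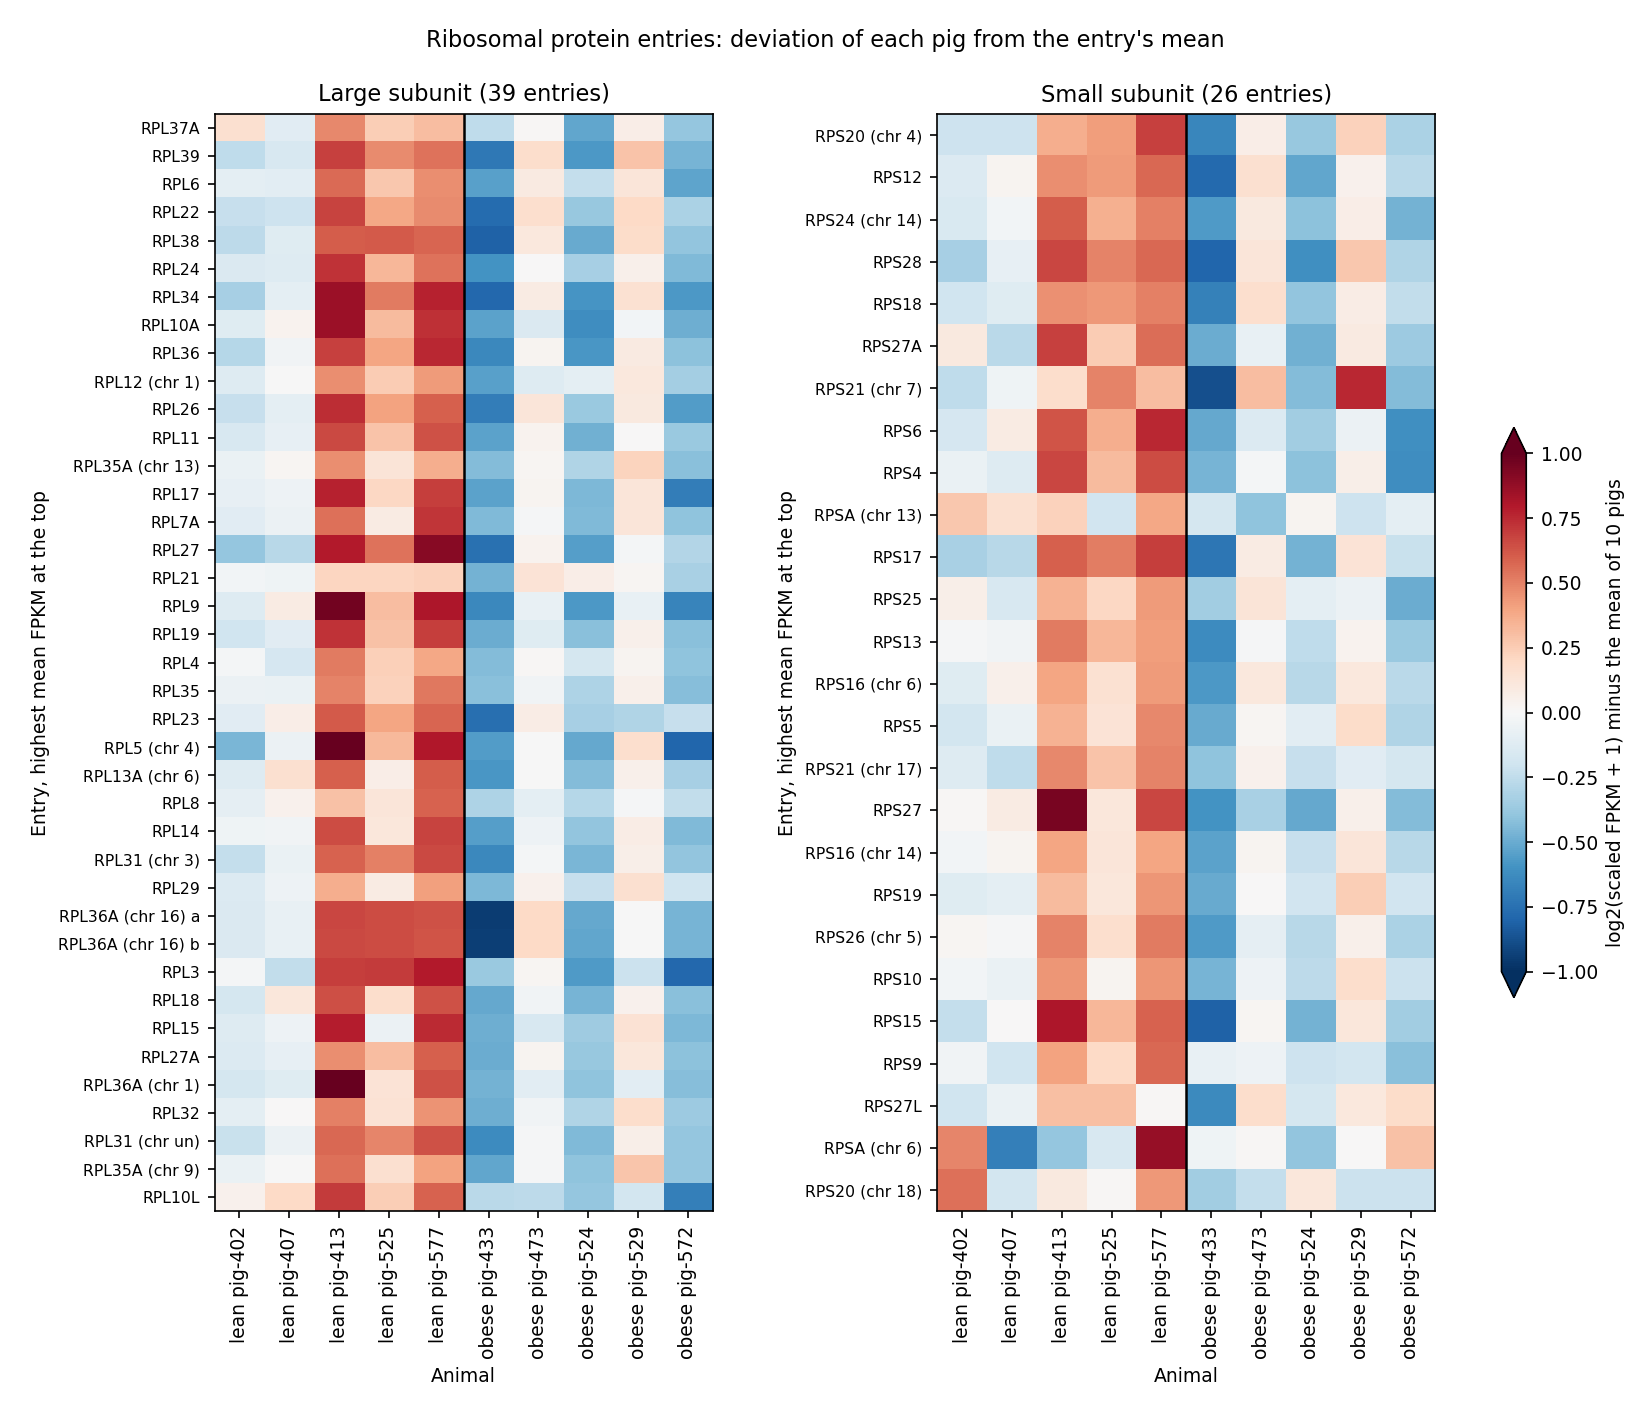
Deviation of each pig (columns, 5 lean then 5 obese) from the mean of the 10 pigs for 65 tested ribosomal protein entries (rows, highest level at the top), in log2(scaled FPKM + 1), with red above and blue below the mean. The columns of pig-413, pig-525 and pig-577 are red and those of pig-433, pig-524 and pig-572 blue in nearly every row, in the 39 large subunit and the 26 small subunit entries drawn alike. RPSA, RPS27L and RPS20 on chromosome 18 are rows that break the pattern.

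How tightly the entries moved together can be read from the spread that remained once each pig's median over the entries was taken off. The median SD between pigs was 0.42 on the log2 scale before and 0.13 after this step, and it was 0.25 for all genes tested before it. Between the first and the second library of pig-572, entries differed by a median of 0.08 in either direction, with a median shift of -0.06, and all genes by 0.08.

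Among large subunit proteins the 40 tested entries had a median log2 fold change of -0.55 and ran from -0.81 to -0.23, and 29 of them had an unadjusted p under 0.05. RPL9, a protein near the base of the P-stalk, had the lowest fitted fold change of all entries on the scale of log2(FPKM + 1). Its level was 437, 504, 931, 591 and 836 FPKM in lean pig-402, pig-407, pig-413, pig-525 and pig-577, against 306, 453, 320.2, 455 and 302 in obese pig-433, pig-473, pig-524, pig-529 and pig-572. Of the lean pigs only pig-402 fell within the obese range, so that obese pigs averaged 55.6% of the lean mean (log2 fold change -0.81, SE 0.24, limma adjusted p = 0.144, two-sided exact permutation p = 0.0238). RPL9 lies on chromosome 8 (32308212 to 32314218). As a percentage of the lean mean, the weakly expressed RPL10L was lower still, at 46.0%.

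RPL3, whose tip reaches toward the peptidyl transferase centre of the large subunit, showed 242, 206, 397, 397 and 425 FPKM in the lean pigs in the same order and 189, 248, 165, 211 and 141 in the obese pigs. Here the lean animals split sharply, with pig-402 and pig-407 inside the obese range and the other 3 far above it (log2 fold change -0.77, SE 0.25, limma adjusted p = 0.160, exact permutation p = 0.0397). RPL10A, a component of the L1 stalk near the tRNA exit site, read 691, 770.0, 1359, 935 and 1251 FPKM in lean and 519, 681, 488, 737 and 536 in obese pigs. Only lean pig-402 lay below the highest obese pig, and the obese mean was 59.2% of the lean mean (log2 fold change -0.73, SE 0.23, limma adjusted p = 0.153, exact permutation p = 0.0159).

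RPL5 and RPL11 bind 5S ribosomal RNA and, when free of the ribosome, restrain MDM2, the regulator of p53. RPL5 was measured at 288, 379, 836, 496 and 689 FPKM in lean pigs and at 268, 395, 276, 444 and 228 in obese pigs. RPL5 thus varied about as much among the lean pigs as between the groups (log2 fold change -0.68, SE 0.31, limma adjusted p = 0.246). RPL11 gave 543, 573, 958, 739 and 943 FPKM in lean and 417, 623, 435.4, 608 and 469 in obese pigs, again with pig-402 and pig-407 below the highest obese animal (log2 fold change -0.54, SE 0.22, limma adjusted p = 0.209).

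RPL4, a protein lining the exit tunnel, served with TBP as a reference gene in the study's quantitative PCR. The paper chose both for their stability in the adipocytes by a Genorm analysis. Its quantitative PCR also covered animals without RNA sequencing, and FPKM is another measure, so the values below do not test that choice. The level of RPL4 was 452, 407.4, 655, 541 and 599 FPKM in the lean pigs. It was 339, 462, 406, 467 and 346 in the obese pigs. The 3 high lean pigs all lay above the obese range and the other two inside it. The obese mean of RPL4 was 404 ± 60.9 (SD, n = 5) and the lean mean 531 ± 102 (SD, n = 5), a log2 fold change of -0.39 (SE 0.18, limma adjusted p = 0.252, exact permutation p = 0.0635). Of the large subunit entries RPL21 and RPL29 had the fold changes nearest to 0. RPL21 showed 518, 511, 611, 612 and 618 FPKM in lean and 380.1, 579.6, 551, 534 and 419.9 in obese pigs (log2 fold change -0.23, SE 0.16). For RPL29 the range was 268 to 390.5 in lean and 216 to 329 in obese pigs (log2 fold change -0.27, SE 0.17).

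The 27 tested small subunit entries had a median log2 fold change of -0.42, from -0.73 to -0.05, and 12 had an unadjusted p under 0.05. RPS27, a zinc-finger protein of the small subunit, gave 207, 218, 399, 223 and 329 FPKM in lean and 136, 164, 144, 213 and 152 in obese pigs. Obese pig-529 alone exceeded the lowest lean pig (log2 fold change -0.73, SE 0.22, limma adjusted p = 0.142, exact permutation p = 0.0159). Its paralog RPS27L, which is induced by p53, was far less abundant, with 20.7, 22.7, 29.7, 29.6 and 24.1 FPKM in lean and 15.0, 27.0, 21.0, 25.7 and 27.2 in obese pigs. The groups overlapped almost fully for RPS27L (log2 fold change -0.14, SE 0.18, limma adjusted p = 0.673).

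RPS6, the substrate of the S6 kinases downstream of mTORC1, stood at 546, 648, 946, 790.4 and 1035 FPKM in lean pigs and at 430.4, 557, 481, 589 and 400.8 in obese pigs. Only pig-402 among the lean animals fell inside the obese range (log2 fold change -0.66, SE 0.21, limma adjusted p = 0.154, exact permutation p = 0.0238). RPS27A, made as a fusion with ubiquitin, gave 1279, 994, 1922, 1424 and 1764 FPKM in lean and 851, 1135, 859, 1276 and 929.9 in obese pigs, where lean pig-407 was the one below the highest obese pig (log2 fold change -0.53, SE 0.22, limma adjusted p = 0.214). RPS19, needed for maturation of the small subunit, ranged from 186 to 276 FPKM in lean and from 142 to 239.9 in obese pigs (log2 fold change -0.26, SE 0.18). The most abundant entry, RPS20 on chromosome 4, read 1662, 1660.4, 2458, 2556 and 3083 FPKM in lean and 1221, 2008, 1473, 2245 and 1536 in obese pigs, with pig-402 and pig-407 within the obese range (log2 fold change -0.42, SE 0.25, limma adjusted p = 0.347).

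RPSA, the laminin receptor precursor that docks on the small subunit, did not follow the order of animals seen elsewhere. On chromosome 13 it gave 564, 522.4, 549, 409 and 613 FPKM in lean and 414, 353, 476, 405 and 438 in obese pigs, with lean pig-525 among the obese animals and pig-402 near the top. A further RPSA entry on chromosome 6 held only 1.10 to 5.17 FPKM in lean and 1.56 to 3.12 in obese pigs (log2 fold change -0.05, SE 0.27), and its direction turned under several other settings of the analysis.

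RPL10L, an intronless relative of RPL10 that is best known from testis, was the only entry whose groups did not overlap, 1 of 67 beside 1.69% of all genes that were lower and 2.45% that were higher in obese pigs without overlap. It gave 1.94, 2.28, 3.64, 2.39 and 3.30 FPKM in lean and 1.37, 1.39, 1.18, 1.52 and 0.773 in obese pigs. All obese pigs lay below all lean pigs, but at levels where the bounds of the authors' program reached up to 47.2% of the value to either side. RPL10L had the lowest adjusted p of the entries (log2 fold change -0.71, SE 0.15, limma adjusted p = 0.082), with an exact permutation p of 0.00794, the smallest that 5 against 5 animals allow. It passed 0.05 once lean pig-402 was left out, a setting under which limma called 146 of all genes in place of 1. On the scale of log2(FPKM + 1) the fold change of so low a gene is understated, and the obese mean was 46.0% of the lean mean. RPL10 itself was not analysed here, and reads of near-identical copies may be shared, so the source of the RPL10L reads is uncertain.

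Several ribosomal protein names had more than 1 entry: 11 names had 2 and 2 names had 3. Such copies can divide reads between them in ways that depend on the authors' counting, and their separate values are uncertain. RPL36A had a pair of short entries of equal length on chromosome 16, and the lower stood at 99.5% to 101% of the higher in every pig. RPL31 on an unplaced scaffold stood at 32.2% to 32.8% of RPL31 on chromosome 3, and RPL35A on chromosome 9 at 10.6% to 12.1% of RPL35A on chromosome 13. These ratios barely varied between animals while the levels themselves differed widely. RPS16 on chromosome 14 held 65.3% to 73.5% of the level on chromosome 6.

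Other pairs did not keep a fixed ratio. RPS21 on chromosome 17 stood at 38.5%, 30.5%, 43.8%, 30.5% and 40.2% of the chromosome 7 entry in lean pigs and at 49.1%, 29.3%, 40.7%, 19.3% and 42.4% in obese pigs. The lowest ratio, in obese pig-529, came with the highest level of the chromosome 7 entry, 1149 FPKM, against 368 to 961 in the other pigs. The third RPL36A entry, on chromosome 1, ranged from 47.1% to 94.0% of the higher chromosome 16 entry, with the lowest ratio in lean pig-525 and the highest in obese pig-433. RPS20 on chromosome 18, with 0.554 to 1.91 FPKM, held at most 0.115% of the level of its namesake on chromosome 4.

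**Figure D4:**
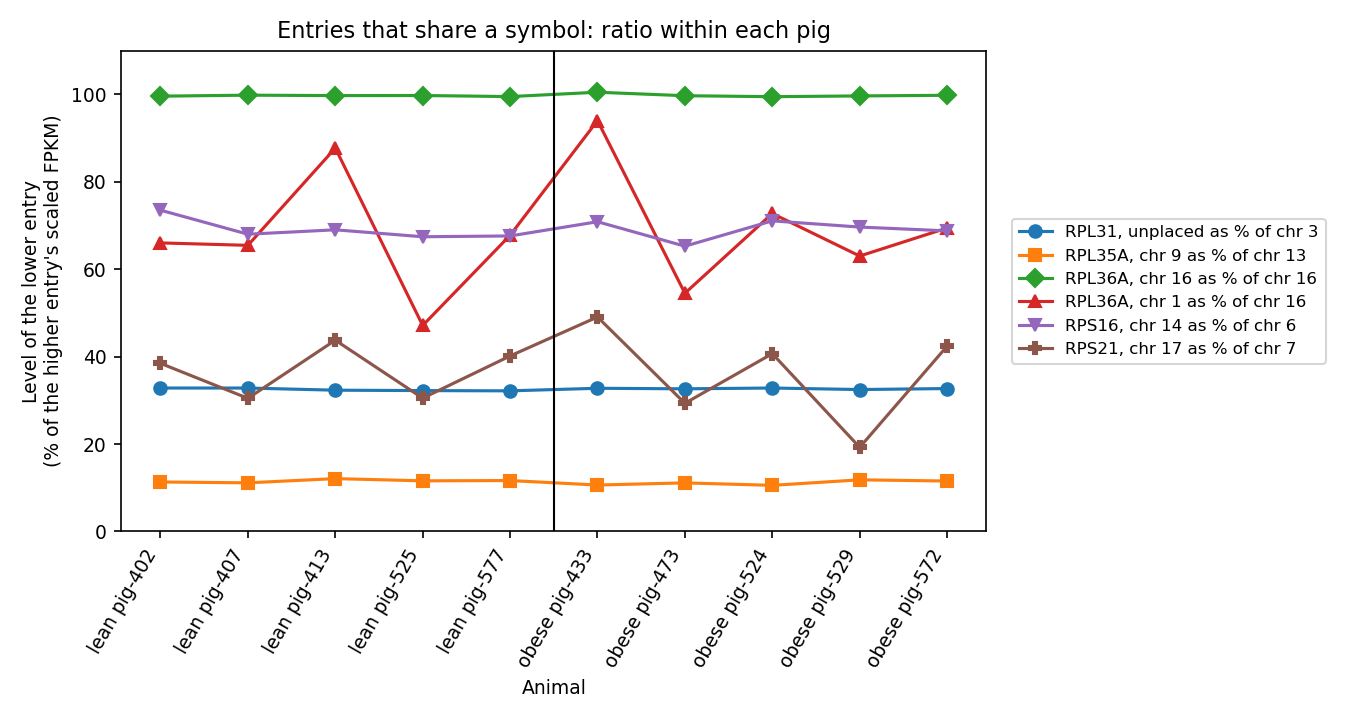
Level of the lower entry as a percentage of the higher entry of the same name (vertical) in each of the 10 pigs (horizontal, 5 lean then 5 obese). The lines of RPL36A on chromosome 16, RPS16, RPL31 and RPL35A are nearly flat, while RPS21 (19.3% to 49.1%) and RPL36A on chromosome 1 (47.1% to 94.0%) vary between pigs.

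Ribosomal protein genes outside the name rule behaved alike. A further 6 genes without a name in the tables carry a ribosomal protein symbol in the reference list of gene names, and all 6 had a fold change below 0, with a median of -0.47 and 4 at an unadjusted p under 0.05. They include both acidic P-stalk proteins. RPLP2 gave 897, 1144, 1825, 1539 and 2111 FPKM in lean and 828, 1219, 576.6, 1075 and 797 in obese pigs (log2 fold change -0.72, SE 0.28, limma adjusted p = 0.204). RPLP1 gave 1111, 1067, 1537, 1402 and 1799 FPKM in lean and 841, 1324, 1053, 1050.1 and 896 in obese pigs (log2 fold change -0.41, SE 0.20, limma adjusted p = 0.271). FAU, the source of the small subunit protein eS30, had a log2 fold change of -0.55 and the small subunit scaffold GNB2L1 (RACK1) of -0.42, while RPL26L1 and RPL7L1 stood at -0.10 and 0.06.

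Other parts of the translation machinery were examined as lists. None of their genes passed an adjusted p of 0.05 in limma. Of 32 initiation factors 23 had a fold change below 0, with a median of -0.15, from -0.65 for EIF3E to 0.40 for EIF5B, and 7 were lower and 2 higher at an unadjusted p under 0.05. Of 11 elongation and release genes 8 were below 0 with a median of -0.33, from -0.70 for NACA, a subunit of the nascent chain complex, to 0.38 for the kinase EEF2K, and 2 were lower and 1 higher at an unadjusted p under 0.05. Genes of ribosome biogenesis were split, 22 of 42 being below 0 with a median of -0.02, from -0.72 for nucleophosmin (NPM1) to 0.56 for BOP1, with 3 lower and 3 higher at an unadjusted p under 0.05. The 5 dedicated chaperones of ribosomal proteins had a median of 0.03, from -0.42 for NAP1L1 to 0.19 for BCCIP, none of them at an unadjusted p under 0.05. Among 15 regulators around mTORC1 and MYC 10 were above 0, from -0.53 for PDCD4 to 0.51 for RPS6KB1, the kinase of RPS6, with a median of 0.13, and 1 was lower and 4 were higher at an unadjusted p under 0.05.

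**Figure D5:**
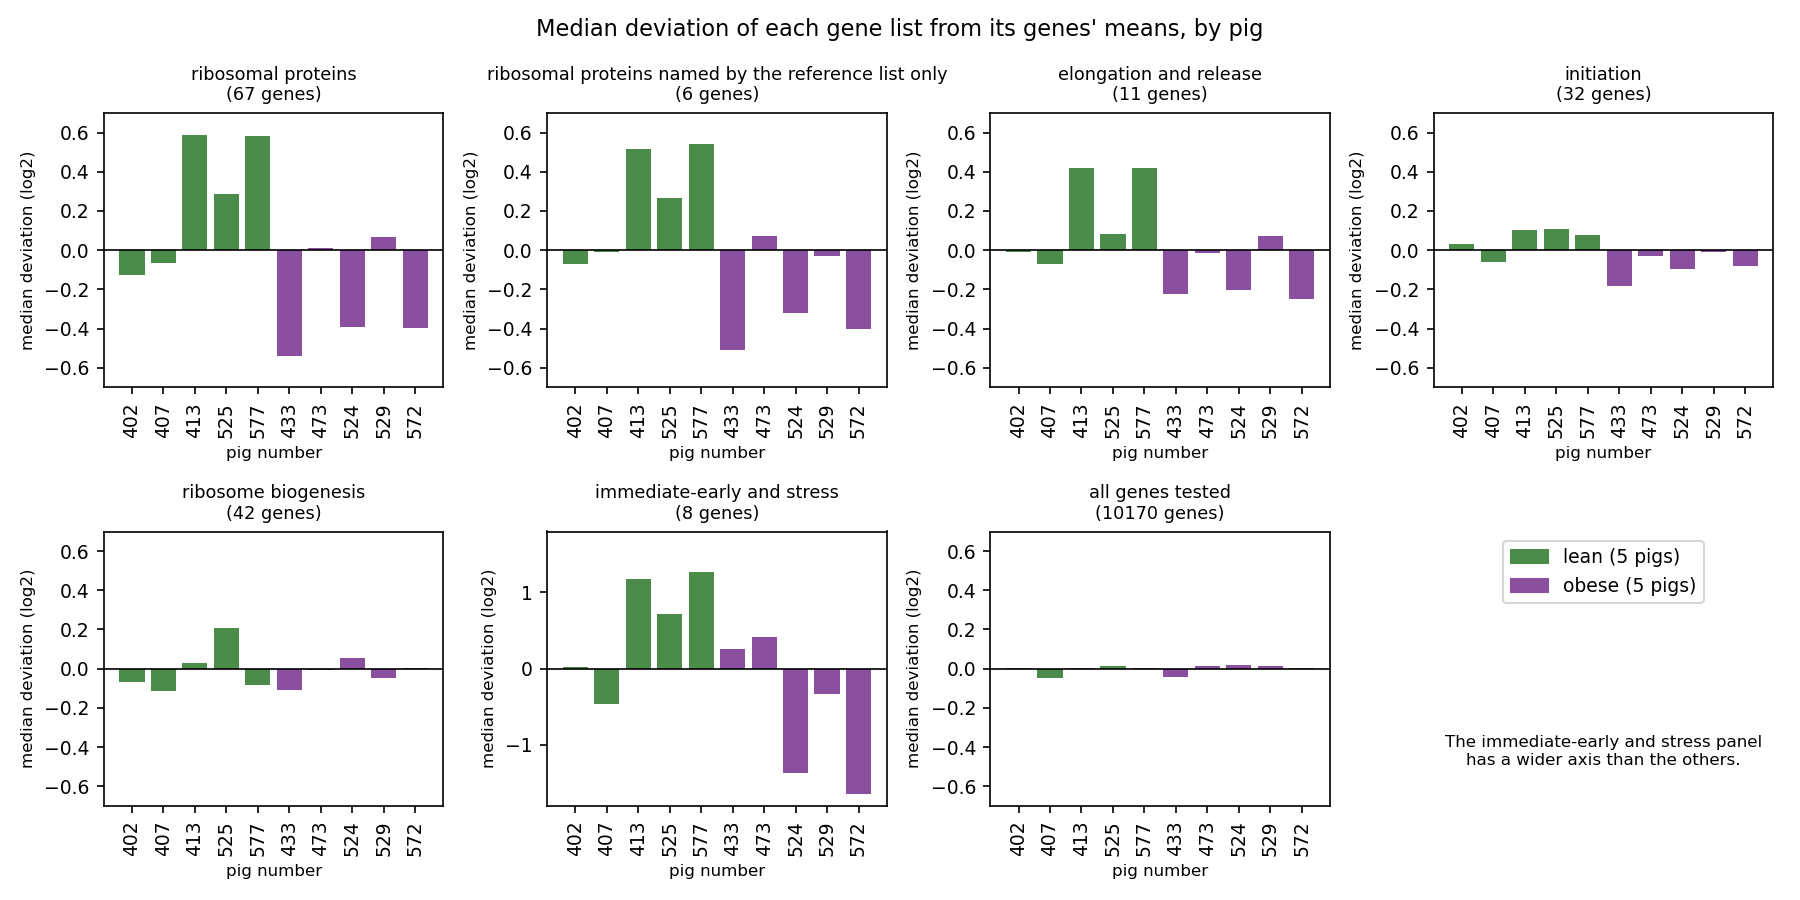
Median deviation of the genes of a list from their means (vertical, log2(scaled FPKM + 1)) in each pig (horizontal, pig number), with lean pigs in green and obese pigs in purple. The 67 ribosomal protein entries, the 6 named by the reference list and the 11 elongation and release genes share the high bars of pig-413 and pig-577, the 42 biogenesis genes and all 10170 genes do not, and the 8 immediate-early and stress genes, on a wider axis, are high in pig-413, pig-525 and pig-577 and low in pig-524 and pig-572.

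Immediate-early and stress genes, which respond to tissue dissociation, varied with the ribosomal proteins in part. Of 8 such genes tested 7 had a fold change below 0, with a median of -1.07, and HSPB1 was the exception at 1.22. At an unadjusted limma p under 0.05 stood 5 on the lower side and HSPB1 on the higher. Their median deviation was 1.18, 1.27 and 0.72 in lean pig-413, pig-577 and pig-525, 0.02 and -0.47 in pig-402 and pig-407, 0.25, 0.41 and -0.34 in obese pig-433, pig-473 and pig-529, and -1.36 and -1.64 in pig-524 and pig-572. Pig-433, lowest in ribosomal proteins, was thus not low in these genes. Their part in the ribosomal protein difference was not tested.

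As for the cells themselves, 3 of 9 adipocyte markers were found by name, perilipin (PLIN1), hormone-sensitive lipase (LIPE) and leptin (LEP). They summed to 397 to 597 FPKM in lean and 565 to 704 in obese pigs. Mean levels in lean and obese pigs were 286 and 338 FPKM for PLIN1, 168 and 165 for LIPE and 28.8 and 118 for LEP. Only for LEP did the groups not overlap, so the sum does not describe the 3 markers alike. Leukocyte markers, 7 of 9 found, summed to 2.81 to 5.41 FPKM in lean and 2.94 to 5.44 in obese pigs, and CD163 was listed at 0. Endothelial markers, 5 of 6 found, summed to 1.47 to 12.5 and 3.49 to 9.54 FPKM, and muscle markers, 3 of 5 found, to at most 1.01. Fibroblast markers, 7 of 8 found and mostly collagen (COL3A1), summed to 224 to 638 FPKM in lean and 242 to 621 in obese pigs. The 4 tested ones varied widely between pigs within both groups. Their median deviation was 0.47, 0.54, -1.54, 0.25 and 1.06 in lean pig-402, pig-407, pig-413, pig-525 and pig-577. It was 0.90, 0.23, -0.83, -0.20 and -0.87 in obese pig-433, pig-473, pig-524, pig-529 and pig-572. Their part in the ribosomal protein difference was not tested. Short loci other than the ribosomal protein entries took 68.5% to 82.5% of the FPKM in lean and 70.5% to 84.9% in obese libraries, a share whose part in the result was not tested. In bulk samples such as these, fewer cells of a type and less RNA per cell cannot be told apart.

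Ribosomal protein genes often host small nucleolar RNAs in their introns, which guide modification of ribosomal RNA. Of the 67 tested entries 16 (23.9%) had a small nucleolar RNA entry within the locus, beside 3.20% of the 9916 tested genes that are not small nucleolar RNAs themselves. These 33 annotated entries, some of which repeat a name, included SNORD16 and SNORD18 within RPL4, SNORA27 within RPL21 and SNORD33, SNORD34 and SNORD35 within the RPL13A locus. Many of them, SNORD18 and SNORD34 included, were listed at 0 FPKM, so an entry in a locus does not mean that its RNA was detected. The tested loci lay on 17 chromosomes and 2 unplaced scaffolds, with 10 entries on chromosome 6 and 9 on chromosome 1.

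Regions that the authors deposited as differing in methylation between the groups were compared with the 80 loci. Since these regions were chosen on the same animals, their values are a description. The lean and obese groups of the capture values are those of the deposited comparison, with pig-411, labelled obese, counted as lean. Of the 80 loci 1 (RPL31 on chromosome 3) overlapped any of the 7401 mDNAcap regions, beside 8.68% of all gene loci. A longer locus is more likely to overlap a region, and 21 of the 80 entries span at most 1005 bases. Locus length was not matched in this comparison or in those of the bisulfite regions below. The RPL31 locus is annotated from 55676567 to 55841538, 164972 bases, and the region lies at 55752801 to 55753800 (Sscrofa10.2). Its capture counts ranged from 10.98 to 21.1 with a median of 13.8 in 11 lean pigs and from 2.44 to 12.3 with a median of 10.4 in 11 obese pigs, so that 6 obese pigs lay below every lean pig. The difference was -0.77 on the scale of log2(count + 1) (SE 0.23, limma adjusted p = 0.00849 over all deposited regions), in a table in which 69% of regions were called lower and 27.1% higher in obese pigs by the same test. With counts rescaled by the median of ratios between animals the RPL31 difference was -0.48 (limma adjusted p = 0.069), and 807 regions were called lower and 2125 higher, in place of 5109 and 2009. RPL31 mRNA itself read 249, 280.1, 442, 418 and 464 FPKM in lean and 188, 291, 214, 306 and 223 in obese pigs (log2 fold change -0.58, SE 0.23, limma adjusted p = 0.202), with pig-402 and pig-407 in the obese range.

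Within 5000 bases lay 2 more capture regions. The first lay 341 bases from RPS13 on chromosome 2 (45083301 to 45084300), with a mean count of 12.2 ± 2.22 (SD, n = 11) in the lean against 6.97 ± 3.28 (SD, n = 11) in the obese group, and 8 obese pigs below every lean pig. The second lay 2612 bases from RPS21 on chromosome 7 (129318301 to 129319500), with 13.1 ± 3.58 (SD, n = 11) in the lean against 20.5 ± 8.003 (SD, n = 11) in the obese group. A region that overlaps FANCE lay 6170 bases from RPL10A and was lower in obese pigs. Further regions lay 7412 bases from RPL9 and 9440 bases from RPS21 on chromosome 17. Both of these overlapped other genes and were higher in obese pigs.

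In bisulfite data the stricter table, which asked for 5 pigs in each group and holds 610 regions, had no region at any of the 80 loci, beside 1.07% of all gene loci. The looser table, with 3 pigs in each group and 2416 regions, had regions at 2 of the 80 loci, beside 3.77% of all. At RPS20 on chromosome 4 a region of 10 CpGs (82680682 to 82680858) lay inside the gene, with the authors' mean methylation at 5.35% in lean and 16.7% in obese pigs. Whether these bases are exonic or intronic was not determined. At RPL13A on chromosome 6 a region of 10 CpGs (50359266 to 50359747) had an authors' mean of 24.5% in lean and 39.1% in obese pigs, and it overlapped NOSIP as well, since the RPL13A locus is annotated over 80176 bases. The mRNA of RPS20 is given above, and RPL13A read 376, 461, 624, 430.3 and 628 FPKM in lean and 275, 412, 304, 426 and 327 in obese pigs (log2 fold change -0.52, SE 0.20, limma adjusted p = 0.200).

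Just beyond a locus, the looser table held a region of 10 CpGs at 36109015 to 36109418, 184 bases from RPL10A, where the authors' means were 2.32% in lean and 12.95% in obese pigs. RPL26 had a region 2863 bases away at 91.3% in lean and 78.8% in obese pigs. Near RPS21 on chromosome 17, 3698 bases away, lay the sole region of the stricter table within 5000 bases of any ribosomal protein locus (69169150 to 69169257, 10 CpGs), with 24.9% in lean and 47.5% in obese pigs. The bisulfite tables give group means without the coverage or the animals behind them, so no error can be set beside these values, and no relation between methylation and mRNA was tested.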

How the data were processed

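RNA, mDNAcap and RRBS were measured in adipocytes of lean and obese pigs. RNA samples were grouped by the labels, and methylation values are in the groups of the deposited comparisons. The mDNAcap comparison counts pig-411 as lean and holds 11 animals a group, so not every labelled pig is in it. The animals behind the bisulfite means are not named, so whether those groups match the labels is unknown. The authors mapped ribosome-depleted RNA with STAR 2.3.1 to Sscrofa10.2 and deposited FPKM per gene and library from Cufflinks 2.2.0. The capture table deposited by the authors holds normalized counts per animal and their mean signal (diffReps), and the bisulfite tables hold group means of methylation as a fraction (metilene, after Bismark 0.10). Columns of the authors' own comparisons (fold changes, p- and q-values), including an mRNA comparison table, and a hotspot table were not used. Coordinates are as deposited, with expression loci shifted to count from 1.

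FPKM was divided by size factors (median of ratios over 14563 genes above 0 throughout). Values of pig-572 are the mean of its libraries, and log2(FPKM + 1) of genes with a mean of at least 1 was fitted with limma 3.58.1 (R 4.3.3, eBayes with trend), adjusted over all genes. Of 25285 genes, 9 with a failed estimate were left out. Single entries were also tested by a two-sided exact permutation of pigs, whose p-values are not adjusted. The labels do not state litters or batches, so p-values measure the spread between these animals. Capture regions were fitted likewise on log2(count + 1), with 11 animals a group. Both fits were tested on simulated data in which each gene or region varied on its own, unlike the ribosomal protein entries. A region belonged to a locus if at least 1 base overlapped. Named entries were RPL4, the 5 highest and lowest, those with the 5 lowest and 5 highest fold changes, any called or non-overlapping, those with a region at the locus, and paralogs and proteins with special roles. Entries and gene lists were chosen with earlier results of these data known. Values of some single genes are not reported here, though lists and counts include them.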

Additional observations from a re-analysis of the deposited data

Results flagged for a closer look

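Among 28 named ribosomal protein entries, 56 groups of 5 pigs were examined for an animal far from the others, and chance marks about 1 group in 20. A single value stood out. RPS20 on chromosome 18, the 360-base copy at the edge of detection, was measured at 1.14 FPKM in obese pig-524, while the other obese pigs lay between 0.554 and 0.708. The same animal was not high for RPS20 on chromosome 4.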

How the results depend on the processing

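The median log2 fold change of the ribosomal protein entries stayed below 0 under every alternative run, between -0.54 and -0.44 under the 9 other settings and between -0.62 and -0.42 when any single pig was left out. The number of entries below 0 ran from 60 to 73 over the other settings and from 65 to 67 over the single-pig omissions, with the number tested varying from 60 to 76. How many entries reached an unadjusted p under 0.05 depended more on single animals. It was 41 with all pigs and 11 to 53 with any one left out, 11 without lean pig-413, 11 without lean pig-577, 11 without obese pig-433, 14 without obese pig-572, 16 without obese pig-524 and 22 without lean pig-525, and it was 26 without size factors, while all genes at that threshold numbered 1396 to 2671 over the single-pig omissions and without size factors, against 2090. Entries at an adjusted p under 0.05 numbered 0 to 2 over the single-pig omissions, with RPL10L among those called without lean pig-402, and 1 (RPL10L) with the libraries of pig-572 kept apart, which enters that pig as 2 animals. Of all genes these settings called 146 and 155, in place of 1. Of the values of named entries under the alternatives, 521 kept direction and call, 6 turned and 2 became called. RPL10L was called under those 2 settings at -0.79 and -0.77. RPSA on chromosome 6 turned to 0.06 without lean pig-402, 0.16 without lean pig-577, 0.04 without obese pig-524, 0.00062 with the libraries of pig-572 apart and 0.0048 with size factors from summed FPKM, and RPS27L to 0.00015 without obese pig-433. Over the single-pig omissions RPSA ran from -0.23 to 0.16 and RPS27L from -0.21 to 0.00015.

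Capture regions numbered 1 at the loci, 3 within 5000 bases and 7 within 10000. Stricter bisulfite regions numbered 0 at the loci and 1 within 5000 bases, and the looser table gave 2. The RPL31 capture difference was -0.86 with a pseudocount of 0.1 and -0.48, no longer called, with animals rescaled by the median of ratios. That rescaling rests on regions that had been chosen for differing. No paired analysis was possible because the labels give the groups no shared replicate numbers. The FPKM tables give no read total per library.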
